A study of Mus musculus with 18 samples.

Results

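Small intestinal organoids of the mouse were cultured with an adrenergic agonist or its vehicle for 4 days, and the 39 genes described here belong to the cellular response to low oxygen. They are the HIF subunits, the enzymes that sense oxygen, and targets of HIF. Other glycolytic enzymes were left out, but Ldha and the glycolytic regulators Pfkfb3 and Pfkfb4 are among the 39. The genes were chosen by their known roles from the 55487 genes of the deposited counts table, with earlier results of these data in view. No threshold on a measured value entered the choice, but the theme was picked after both agonist comparisons had been seen, so the counts of members below are a description and the list as a whole was not tested. All 39 symbols matched 1 row of the table each, and all 39 passed the filter on low counts that 15247 genes passed.

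The 18 samples were 4 organoid cultures with HCl vehicle, 5 with 1 µM norepinephrine, 4 with DMSO vehicle and 5 with 1 µM UK 14,304. Norepinephrine is the transmitter of sympathetic nerves and acts on α- and β-adrenergic receptors, and UK 14,304, also known as brimonidine, is a selective agonist of α2-adrenergic receptors. All samples came from organoids grown out of crypts of wild-type C57BL/6 mice, and each agonist has a vehicle of its own. The labels number the samples m1 to m5, and m5 has only its 2 agonist samples. Organoids hold epithelium without vessels, nerves or immune cells, which limits them as a model of the gut wall, and the oxygen level of the cultures is not given in the sources used here.

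HIF is a transcription factor of an oxygen-sensitive alpha subunit, encoded by Hif1a or Epas1, and a stable partner encoded by Arnt. When oxygen is plentiful, the prolyl hydroxylases encoded by the Egln genes mark the alpha subunit for binding by the Vhl protein and for breakdown, so the control acts mainly on protein and not on the mRNA of the subunits. When oxygen falls, HIF raises genes for glucose uptake, lactate export, mitochondrial clearance, vessel growth and matrix hydroxylation, and it raises some of its own hydroxylases. In the intestine, oxygen falls from the crypt base towards the lumen, and HIF is known for its part in barrier function and in iron uptake.

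With UK 14,304, 37 of the 39 genes had a lower fitted level than with DMSO vehicle, as did 7826 of all 15247 genes tested. Of the 39 genes, 19 fell at an adjusted p under 0.05, whereas none rose. The reductions were modest, from 10.8% for Egln1 to 33.6% for Ankrd37. The 19 genes took in the hydroxylases Egln1 and Egln3, the glucose and lactate transporters Slc2a1 and Slc16a3, the vessel growth factor Vegfa, the carbonic anhydrase Car9 and the collagen prolyl hydroxylases P4ha1 and P4ha2. Hif1a itself, the oxygen-sensitive subunit, was one of the 2 genes with a higher fitted level, at a log2 fold change of 0.20 (SE 0.0661, adjusted p = 0.179). With norepinephrine, 36 of the 39 genes were lower than with HCl vehicle, as were 8040 of all genes tested, but none of the 39 passed the threshold. Bulk samples cannot tell fewer cells of a type that expresses a gene from less of its RNA per cell.

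The threshold was an adjusted p under 0.05 in edgeR's quasi-likelihood test over all 15247 genes, in 1 model of the 4 groups with the replicate number as a block. Among all genes tested, 1.22% passed it with UK 14,304 in either direction and 1.04% passed it as lower. The median log2 fold change was -0.23 over the 39 genes and -0.0043 over all genes tested. At an unadjusted p under 0.05 were 28 of the 39 genes, against 14.8% of all genes. Because the theme was chosen with this comparison in view, nothing is read from these shares. The calls rest on the block: in the same model without it, 0 of the 39 genes and 6 of all genes passed with UK 14,304. In that fit 21 of the 39 genes and 1708 of all 15247 had an unadjusted p under 0.05.

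The promoter stretches of 5 of the 19 genes that fell with UK 14,304, picked without a fixed rule, are shown because HIF binds DNA at a short core. The letters searched, on both strands, were ACGTG and, as the other form of the core, GCGTG. Each stretch is the 250 bases before the RefSeq transcription start, read 5′ to 3′ on the strand of the gene, build GRCm38.p6, with each match in capitals. A match on the opposite strand appears as its reverse complement, and neighbouring matches can share letters and then form 1 longer run of capitals.
Ankrd37 promoter (chr8:45999851-46000100, minus strand): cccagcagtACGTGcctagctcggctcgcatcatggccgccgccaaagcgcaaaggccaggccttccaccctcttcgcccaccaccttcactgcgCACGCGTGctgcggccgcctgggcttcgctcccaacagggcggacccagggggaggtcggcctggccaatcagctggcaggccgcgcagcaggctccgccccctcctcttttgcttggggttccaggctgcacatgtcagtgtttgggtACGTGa
Slc16a3 promoter (chr11:120948817-120949066, plus strand): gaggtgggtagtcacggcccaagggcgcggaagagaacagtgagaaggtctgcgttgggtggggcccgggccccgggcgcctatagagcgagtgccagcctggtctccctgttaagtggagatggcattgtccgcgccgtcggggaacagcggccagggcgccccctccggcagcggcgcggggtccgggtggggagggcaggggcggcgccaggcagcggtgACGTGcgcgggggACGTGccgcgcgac
P4ha2 promoter (chr11:54100674-54100923, plus strand): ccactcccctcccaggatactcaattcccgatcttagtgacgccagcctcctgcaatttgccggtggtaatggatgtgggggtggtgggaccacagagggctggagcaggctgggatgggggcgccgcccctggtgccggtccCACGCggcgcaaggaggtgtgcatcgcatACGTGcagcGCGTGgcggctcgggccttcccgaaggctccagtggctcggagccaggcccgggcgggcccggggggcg
Fam162a promoter (chr16:36071562-36071811, minus strand): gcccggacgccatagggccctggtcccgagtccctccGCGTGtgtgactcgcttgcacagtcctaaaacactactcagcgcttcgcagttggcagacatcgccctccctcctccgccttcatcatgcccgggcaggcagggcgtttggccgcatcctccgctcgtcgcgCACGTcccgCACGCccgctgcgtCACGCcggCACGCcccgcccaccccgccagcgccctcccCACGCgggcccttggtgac
Selenbp1 promoter (chr3:94932833-94933082, plus strand): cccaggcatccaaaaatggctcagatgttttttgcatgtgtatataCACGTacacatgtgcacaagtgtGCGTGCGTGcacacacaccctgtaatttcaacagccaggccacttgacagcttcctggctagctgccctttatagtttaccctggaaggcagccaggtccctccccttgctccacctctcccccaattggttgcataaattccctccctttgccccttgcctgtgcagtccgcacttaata

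These stretches hold 4 matches for Ankrd37, 2 for Slc16a3, 3 for P4ha2, 6 for Fam162a and 3 for Selenbp1. RefSeq promoter windows, which reach from 250 bases before to 50 after each start, were at hand for 33 of the 39 genes, some with several starts, in 45 windows. Of these, 35 windows, or 77.8%, held either core on either strand and 23, or 51.1%, held ACGTG. Over all 32851 promoter windows the shares were 43.8% and 19.6%, and over the 13676 windows of tested genes they were 60.4% and 25.0%. Member windows had more CpG, with a median of 24 per window against 7 over all and 20 over those of tested genes. Both motifs contain a CpG. Among the 4158 windows of tested genes with 20 to 30 CpG, 73.9% held either core and 29.97% held its first form. No match was found for Car12, Gbe1, Gys1, Hif1an and Vhl, which says only that these letters are not in those windows. The genes were listed for their known part in the HIF pathway, so a larger share than in other windows could follow from the list. Nothing is read from these shares. A match is not a binding site, and binding was not measured.

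Sequencing depth was even, with 21866149 to 27850373 counted reads per sample. Transcripts of the ribosomal RNA gene CT010467.1 took 1.83% to 3.06% of the counts in 7 samples and 0.313% to 0.619% in the other 11, and the 7 included 3 of the 4 DMSO vehicle samples but 1 of the 5 UK 14,304 samples. Levels are given below as CPM, the count per 1000000 reads after TMM scaling, in the order m1 to m4 for the vehicles and m1 to m5 for the agonists. RPKM, which is CPM per kilobase of exon, is used where genes are compared with each other.

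In the 8 vehicle samples, levels per exon length spanned from 581 RPKM for Ldha, the lactate dehydrogenase subunit, to 0.929 RPKM for Plod1, a lysyl hydroxylase of collagen. Fam162a, Ndrg1, Car9 and Egln3 followed Ldha at 214, 182, 138 and 126 RPKM, and their ranges over samples overlapped from one to the next. Ddit4, an inhibitor of mTORC1, lay at 96.1 ± 2.59 RPKM (SD, n = 8), below every sample of Egln3 and above every sample of Bhlhe40. Hif1a stood in the middle of the order at 19.6 ± 1.25 RPKM (SD, n = 8), with Arnt at 10.3 and Epas1 at 10.01 RPKM. From the sixteenth gene, Egln2 at 25.0 RPKM, down to P4ha2 at 5.45 RPKM, the ranges of neighbouring genes over the 8 samples overlapped. The 2 lysyl hydroxylases Plod2 and Plod1 closed the order, below P4ha2 in all 8 samples.

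**Figure D1:**
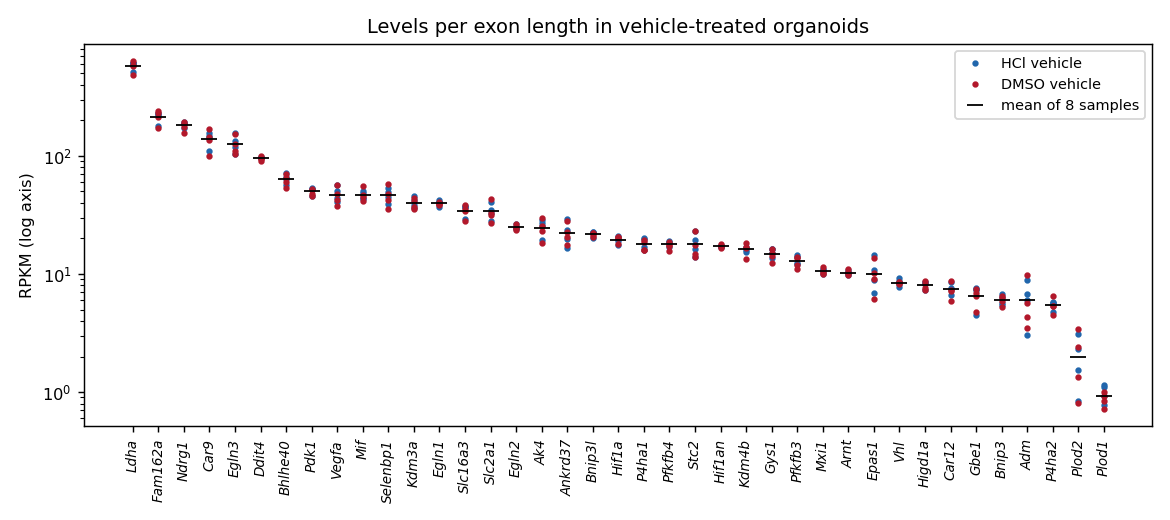
Level of each of the 39 genes in the 8 vehicle samples, in RPKM on a log axis, ordered by the mean, with HCl vehicle in blue and DMSO vehicle in red. Ldha lies above all others at a mean of 581 RPKM, and no gene passed the test between the vehicles.

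None of the 3 HIF subunit genes passed the test with either agonist. Hif1a (ENSMUSG00000021109, chr12:73901375-73947530, plus strand) gave 121, 106, 121 and 119 CPM with DMSO vehicle and 132, 121, 135, 154 and 142 CPM with UK 14,304. All 4 numbers that have both samples were higher with UK 14,304, by 0.125 to 0.373 on the log2 scale, but the groups overlapped and the call failed. It passed the threshold, as higher, under 5 alternatives, among them the fit on the 2 groups alone and the fit with the GC trend removed, where its log2 fold change was 0.11. With norepinephrine, Hif1a gave 124, 104, 116 and 112 CPM with HCl vehicle and 133, 124, 144, 110.0 and 149 CPM with norepinephrine, a log2 fold change of 0.18 (SE 0.0667, adjusted p = 0.556), and m4 was the number that did not go up.

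Epas1, the other oxygen-sensitive subunit, gave 50.6, 75.9, 34.0 and 57.1 CPM with DMSO vehicle and 50.5, 67.6, 31.9, 54.4 and 55.1 CPM with UK 14,304, and 49.5, 81.4, 38.2 and 60.7 CPM with HCl vehicle and 50.2, 72.0, 37.0, 62.2 and 53.5 CPM with norepinephrine. Here the numbers differed far more than the treatments: m3 was lowest and m2 highest in every group. Its log2 fold changes were -0.07 (SE 0.052, adjusted p = 0.553) with UK 14,304 and -0.06 (SE 0.052, adjusted p = 0.69) with norepinephrine. Arnt, the stable partner, gave 83.5, 82.2, 78.2 and 88.2 CPM with DMSO vehicle and 81.1, 86.6, 80.6, 85.2 and 78.0 CPM with UK 14,304, and 79.8, 86.0, 77.9 and 84.1 CPM with HCl vehicle and 82.3, 84.8, 82.6, 82.3 and 84.3 CPM with norepinephrine. Its groups overlapped throughout, and its log2 fold changes of -0.01 (SE 0.0391) with UK 14,304 and 0.03 (SE 0.0394) with norepinephrine were smaller than or near their errors.

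Of the 3 hydroxylases that mark HIF for breakdown, Egln1 and Egln3 fell with UK 14,304. Egln3 (ENSMUSG00000035105, chr12:54178981-54203860, minus strand), a hydroxylase that hypoxia is known to raise, gave 296, 407, 277 and 339 CPM with DMSO vehicle and 263, 312, 175, 285 and 249 CPM with UK 14,304. Every number was lower with UK 14,304, although the groups overlapped: m2 and m4 with the agonist stood above m3 with the vehicle, and m2 also stood above m1 with the vehicle. Its log2 fold change was -0.38 (SE 0.0624, adjusted p = 0.00424). With norepinephrine it gave 319, 412, 276 and 354 CPM with HCl vehicle and 297, 324, 248, 331 and 319 CPM with norepinephrine, lower in all 4 numbers at a log2 fold change of -0.16 (SE 0.0626, adjusted p = 0.56).

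Egln1, the main oxygen sensor of most cells, gave 141, 141, 138 and 146 CPM with DMSO vehicle and 131, 132, 111, 136 and 121 CPM with UK 14,304. All 5 agonist samples lay below all 4 vehicle samples, which held for only 2 of the 39 genes and for 1.78% of all genes tested. The reduction was small, at a log2 fold change of -0.16 (SE 0.0393, adjusted p = 0.0462). With norepinephrine Egln1 gave 151, 148, 133 and 147 CPM with HCl vehicle and 140.4, 139, 132, 146 and 139 CPM with norepinephrine, and these groups overlapped. Egln2, which is not known as a target of HIF, gave 75.0, 69.5, 69.0 and 66.4 CPM with DMSO vehicle and 71.3, 66.2, 62.7, 57.9 and 62.0 CPM with UK 14,304, and 74.6, 68.6, 68.9 and 68.0 CPM with HCl vehicle and 61.0, 60.9, 61.4, 79.3 and 58.1 CPM with norepinephrine. The norepinephrine sample of m4 stood apart at 79.3 CPM, above every other sample of its group and of its vehicle. Neither log2 fold change of Egln2 passed the test, at -0.11 (SE 0.0745, adjusted p = 0.51) with UK 14,304 and -0.10 (SE 0.0748, adjusted p = 0.653) with norepinephrine.

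Hif1an, the asparaginyl hydroxylase that limits HIF activity, gave 118, 113, 115 and 109.5 CPM with DMSO vehicle and 115, 108, 109, 103 and 110.2 CPM with UK 14,304, and 113, 112, 113 and 116 CPM with HCl vehicle and 114, 112, 106, 110.5 and 109 CPM with norepinephrine. It was lower in all 4 numbers with UK 14,304, with log2 ratios of -0.0872 to -0.0428, and did not pass at -0.06 (SE 0.0367, adjusted p = 0.419). Vhl, the recognition subunit of the ligase that removes hydroxylated HIF, was likewise not called, at -0.10 (SE 0.0645, adjusted p = 0.451).

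Among the 9 genes of fuel use and glycogen, all 9 were lower and 6 fell with UK 14,304. Slc2a1, the glucose transporter GLUT1, gave 111, 152, 94.8 and 116 CPM with DMSO vehicle and 98.7, 110.5, 64.2, 93.4 and 88.4 CPM with UK 14,304. Each number was lower, most of all m3, and the log2 fold change was -0.37 (SE 0.0676, adjusted p = 0.00727). Ldha gave 1919, 2093, 1595 and 1964 CPM with DMSO vehicle and 1769, 1763, 1286, 1629 and 1606 CPM with UK 14,304, lower in each number at -0.23 (SE 0.0458, adjusted p = 0.0141). Slc16a3, the lactate exporter MCT4, gave 188, 205, 148 and 181 CPM with DMSO vehicle and 162, 148, 88.6, 137 and 132 CPM with UK 14,304. The m3 sample was lowest in both groups and the log2 fold change was -0.44 (SE 0.0826, adjusted p = 0.0126).

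Pfkfb3, which makes the activator of phosphofructokinase, gave 89.5, 106, 83.7 and 103 CPM with DMSO vehicle and 78.5, 86.0, 52.6, 82.0 and 72.0 CPM with UK 14,304, with a log2 fold change of -0.37 (SE 0.0647, adjusted p = 0.00544). Its relative Pfkfb4 did not pass, at -0.07 (SE 0.0587, adjusted p = 0.594). Ak4, a mitochondrial adenylate kinase, gave 108, 139, 84.6 and 119 CPM with DMSO vehicle and 92.3, 104, 54.0, 99.5 and 77.9 CPM with UK 14,304. This was the lowest p of the fuel genes, at -0.39 (SE 0.0624, adjusted p = 0.0031), and the m3 sample with UK 14,304 was the lowest of all 18. Gys1, the muscle-type glycogen synthase, gave 68.0, 77.9, 59.6 and 71.6 CPM with DMSO vehicle and 63.4, 67.0, 44.6, 60.5 and 58.6 CPM with UK 14,304, and it only just passed at -0.24 (SE 0.0573, adjusted p = 0.0495). Gbe1, the glycogen branching enzyme, did not pass at -0.13 (SE 0.0565, adjusted p = 0.281). Pdk1, the kinase that holds pyruvate back from mitochondria, gave 371, 402, 356 and 408 CPM with DMSO vehicle and 340.2, 358, 284, 391 and 315 CPM with UK 14,304, lower in all 4 numbers and just short of the threshold at -0.18 (SE 0.0443, adjusted p = 0.0572).

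None of these genes passed with norepinephrine. Slc2a1 gave 116, 144, 98.6 and 122 CPM with HCl vehicle and 96.6, 116, 84.6, 125 and 101 CPM with norepinephrine. Ldha gave 2046, 2033, 1718 and 2013 CPM with HCl vehicle and 1817, 1789, 1506, 2023 and 1680 CPM with norepinephrine. Slc16a3 gave 199, 197, 156 and 195 CPM with HCl vehicle and 164, 154, 125, 198 and 144 CPM with norepinephrine. For these 3 genes m1, m2 and m3 were lower and m4 was slightly higher. Pfkfb3 gave 93.5, 108, 92.2 and 105 CPM with HCl vehicle and 89.8, 92.9, 78.9, 92.6 and 89.4 CPM with norepinephrine. Ak4 gave 119, 133, 89.4 and 125 CPM with HCl vehicle and 114, 118, 83.2, 116 and 109.7 CPM with norepinephrine. Gys1 gave 72.5, 78.3, 65.9 and 77.8 CPM with HCl vehicle and 63.5, 68.3, 57.1, 77.1 and 65.3 CPM with norepinephrine. All 3 were lower in every number. Pdk1, with 411, 405, 358 and 414 CPM with HCl vehicle and 397, 392, 340.1, 384 and 377 CPM with norepinephrine, was among the genes nearest to 0 of those with 1 sign in all numbers, at -0.06 (SE 0.0445). Across these 9 fuel genes the log2 fold changes with norepinephrine were all below 0 with a median of -0.14, and 5 had an unadjusted p under 0.05.

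Of the 5 genes of mitochondria, mitophagy and mTORC1, Higd1a and Fam162a fell. Higd1a, a small inner membrane protein of the respiratory chain, gave 23.1, 25.2, 22.2 and 26.6 CPM with DMSO vehicle and 21.3, 21.6, 16.5, 20.4 and 21.1 CPM with UK 14,304. All 5 agonist samples lay below all vehicle samples, the other gene of the pair with Egln1, and the log2 fold change was -0.28 (SE 0.0567, adjusted p = 0.0141). Fam162a, a mitochondrial protein raised in hypoxia, gave 180.2, 204, 147 and 195 CPM with DMSO vehicle and 164, 159.8, 115, 149 and 151 CPM with UK 14,304. Its log2 fold change of -0.30 (SE 0.0434, adjusted p = 0.00145) had the second smallest adjusted p of the 39 genes. Higd1a gave 26.2, 25.2, 22.3 and 26.2 CPM with HCl vehicle and 23.5, 23.5, 21.7, 24.6 and 24.3 CPM with norepinephrine. Fam162a gave 196, 194, 152 and 189 CPM with HCl vehicle and 175, 175, 143, 184 and 169 CPM with norepinephrine. Both were lower in every number with norepinephrine, at log2 fold changes of -0.10 (SE 0.0567, adjusted p = 0.613) and -0.11 (SE 0.0434, adjusted p = 0.561).

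Bnip3 and Bnip3l, the receptors that direct mitochondria to autophagy, were not called: Bnip3 had a log2 fold change of -0.34 (SE 0.0883, adjusted p = 0.0757) and was lower in all 4 numbers, and Bnip3l had -0.04 (SE 0.079, adjusted p = 0.811). The difference between them was not tested. Ddit4 was at -0.06 (SE 0.0431, adjusted p = 0.499).

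Car9, the carbonic anhydrase at the cell surface that serves as a marker of hypoxia, gave 317, 392, 231 and 330.3 CPM with DMSO vehicle and 293, 323, 201, 273 and 261 CPM with UK 14,304, and 327, 362, 254 and 338 CPM with HCl vehicle and 299, 324, 238, 348 and 288 CPM with norepinephrine. It fell with UK 14,304 at -0.21 (SE 0.0502, adjusted p = 0.0409), with m3 lowest in each of the 4 groups. Car12, a related surface enzyme, gave 55.7, 45.0, 65.7 and 54.4 CPM with DMSO vehicle and 55.8, 51.6, 69.4, 54.1 and 54.5 CPM with UK 14,304, and 57.9, 50.2, 64.9 and 57.0 CPM with HCl vehicle and 56.6, 49.9, 62.7, 50.6 and 57.2 CPM with norepinephrine. For Car12, m3 was the highest sample in every group, and neither log2 fold change passed, at 0.05 (SE 0.0472, adjusted p = 0.613) and -0.05 (SE 0.0476, adjusted p = 0.705).

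Of the 4 secreted factors, 3 fell with UK 14,304. Stc2 (ENSMUSG00000020303, chr11:31357307-31370074, minus strand), a secreted glycoprotein of the stanniocalcin family, gave 76.5, 121, 72.2 and 92.0 CPM with DMSO vehicle and 61.4, 82.3, 34.2, 68.2 and 67.4 CPM with UK 14,304. The m3 sample lost the most, at a log2 ratio of -1.08, against -0.32 in the number that lost least, and the fitted log2 fold change was -0.58 (SE 0.0927, adjusted p = 0.0047). Stc2 with norepinephrine gave 83.9, 119, 72.5 and 100.5 CPM with HCl vehicle and 71.8, 87.1, 60.1, 92.0 and 87.8 CPM with norepinephrine, lower in all numbers at -0.26 (SE 0.0924, adjusted p = 0.556). Vegfa, the main growth factor of vessels, gave 181, 245, 163 and 202 CPM with DMSO vehicle and 162, 201, 119, 175 and 168 CPM with UK 14,304, and fell at -0.27 (SE 0.058, adjusted p = 0.0247). With norepinephrine Vegfa gave 187, 243, 176 and 215 CPM with HCl vehicle and 179, 198, 160.2, 216 and 186 CPM with norepinephrine, and 3 of the 4 numbers were lower.

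Adm, the vasodilator peptide adrenomedullin, was low in count, with 73 reads in its lowest sample. It gave 6.96, 16.0, 5.67 and 9.29 CPM with DMSO vehicle and 6.58, 10.8, 3.02, 6.37 and 6.31 CPM with UK 14,304, and 9.83, 14.3, 4.91 and 11.0 CPM with HCl vehicle and 6.99, 9.69, 5.01, 9.19 and 8.51 CPM with norepinephrine. The m2 vehicle samples were the highest, and the log2 fold change of -0.52 (SE 0.126, adjusted p = 0.0495) with UK 14,304 rested on a wide spread between numbers, from -0.911 to -0.0808. Mif, a cytokine, had a log2 fold change of -0.44 (SE 0.133, adjusted p = 0.144) and did not pass.

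The collagen prolyl hydroxylases P4ha1 and P4ha2 fell together with UK 14,304. P4ha1 gave 65.9, 80.2, 66.1 and 76.3 CPM with DMSO vehicle and 58.4, 66.3, 43.2, 65.1 and 53.0 CPM with UK 14,304. P4ha2 gave 33.5, 40.4, 28.1 and 33.4 CPM with DMSO vehicle and 28.9, 28.1, 17.8, 25.5 and 26.1 CPM with UK 14,304. Both were lower in all 4 numbers and lowest in m3 with the agonist, at log2 fold changes of -0.33 (SE 0.0605, adjusted p = 0.00718) for P4ha1 and -0.42 (SE 0.0726, adjusted p = 0.00505) for P4ha2. With norepinephrine, P4ha1 gave 69.6, 82.6, 65.6 and 81.3 CPM with HCl vehicle and 65.0, 69.6, 63.5, 72.5 and 68.1 CPM with norepinephrine. P4ha2 gave 35.3, 36.1, 29.8 and 35.3 CPM with HCl vehicle and 30.9, 30.8, 26.6, 33.2 and 28.5 CPM with norepinephrine, and both genes were lower in every number. The lysyl hydroxylases were not called, with -0.08 (SE 0.0894, adjusted p = 0.684) for Plod1 and -0.33 (SE 0.102, adjusted p = 0.15) for Plod2. Plod2 was low in count, with 56 reads in its lowest sample.

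None of the 4 genes of chromatin and transcription passed. The histone demethylases Kdm3a and Kdm4b had log2 fold changes of -0.07 (SE 0.0438, adjusted p = 0.442) and -0.21 (SE 0.0656, adjusted p = 0.139) with UK 14,304. Mxi1, an antagonist of Myc, had -0.16 (SE 0.051, adjusted p = 0.147), and Bhlhe40, a repressor also known from the circadian clock, had -0.12 (SE 0.0447, adjusted p = 0.207). All 4 were lower, and 3 of them had an unadjusted p under 0.05.

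Ankrd37 (ENSMUSG00000050914, chr8:45996902-46005707, minus strand), a short ankyrin repeat gene known as a direct HIF target, gave 31.7, 43.0, 27.0 and 35.2 CPM with DMSO vehicle and 23.7, 30.1, 13.5, 25.1 and 22.9 CPM with UK 14,304. It had the largest reduction of the 39 genes with UK 14,304 and the smallest adjusted p, at a log2 fold change of -0.59 (SE 0.0797, adjusted p = 0.000892). With norepinephrine it gave 30.7, 44.9, 25.8 and 36.7 CPM with HCl vehicle and 26.6, 31.3, 21.4, 33.6 and 28.9 CPM with norepinephrine, lower in all numbers at -0.28 (SE 0.0796, adjusted p = 0.556). The samples of m2 were highest and those of m3 lowest within both vehicle groups.

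Selenbp1, a methanethiol oxidase, gave 95.4, 131, 81.5 and 109 CPM with DMSO vehicle and 82.6, 92.2, 55.8, 79.0 and 79.4 CPM with UK 14,304, at -0.42 (SE 0.0618, adjusted p = 0.00186). With norepinephrine Selenbp1 gave 101, 122, 88.8 and 112 CPM with HCl vehicle and 86.1, 101, 69.9, 109 and 87.3 CPM with norepinephrine, and its adjusted p was the smallest of the 39 genes in that comparison, at -0.23 (SE 0.0617, adjusted p = 0.42). Ndrg1, a stress-responsive gene, gave 1157, 1275, 1041 and 1241 CPM with DMSO vehicle and 1072, 1036, 810.3, 1065 and 989 CPM with UK 14,304, and 1227, 1258, 1126 and 1268 CPM with HCl vehicle and 1127, 1097, 981, 1247 and 1113 CPM with norepinephrine. It was lower in all numbers with both agonists and its log2 fold change was -0.25 (SE 0.0431, adjusted p = 0.00537) with UK 14,304 and -0.14 (SE 0.0431, adjusted p = 0.556) with norepinephrine.

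**Figure D2:**
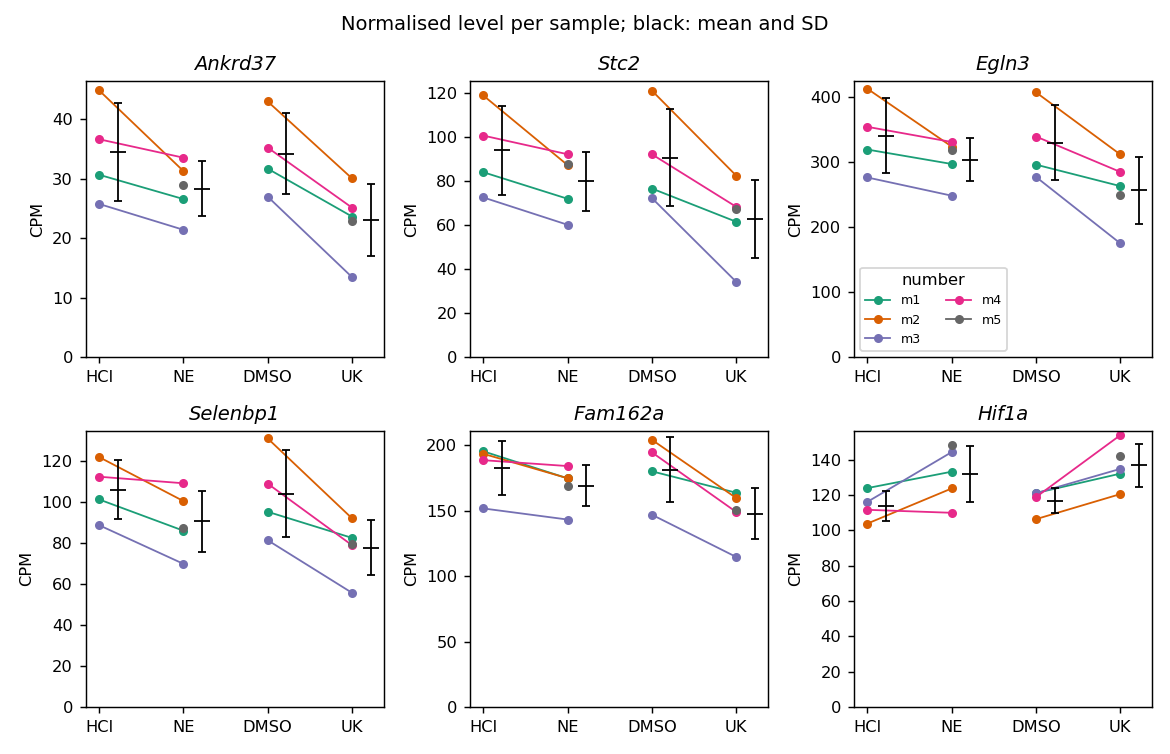
CPM of 6 genes in every sample by group (HCl vehicle, norepinephrine as NE, DMSO vehicle, UK 14,304 as UK), with lines joining samples of 1 number and black bars for the mean and SD. Lines of Ankrd37, Stc2, Egln3, Selenbp1 and Fam162a go down for every number while the groups overlap, and those of Hif1a go up with UK 14,304.

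**Figure D3:**
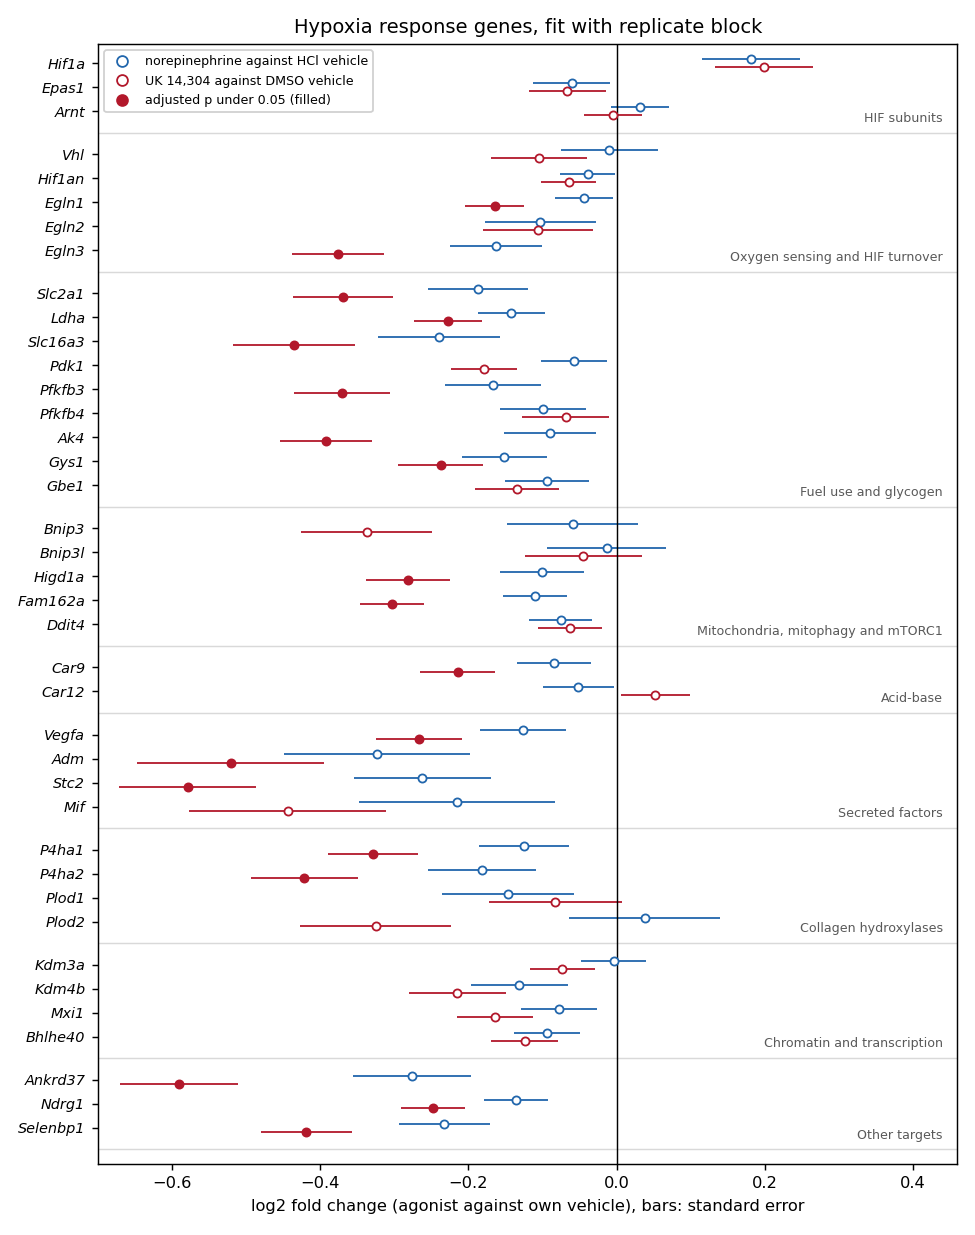
Log2 fold change of each of the 39 genes with norepinephrine against HCl vehicle (blue) and UK 14,304 against DMSO vehicle (red), by role, with bars for the standard error and filled points for an adjusted p under 0.05. The 19 filled points are all red and all below 0, and 36 of the 39 blue points lie below 0.

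The comparison with norepinephrine asked whether the transmitter itself moved these genes. With norepinephrine, 0 of the 39 genes passed, as did 0.105% of all genes tested, and 15 of the 39 had an unadjusted p under 0.05, against 8.4% of all. DESeq2 with the block also called 0 of the 39. Their median log2 fold change was -0.10, against -0.0077 over all genes. The genes with the smallest unadjusted p were Selenbp1 at 0.00138, Ankrd37 at 0.00276, Ndrg1 at 0.00568 and Ldha at 0.00607. All 4 numbers were lower for 18 of the 39 genes, and for 8.26% of all genes tested, and 0 of the 39 had all norepinephrine samples below all HCl vehicle samples, against 0.78% of all. These counts turned on the norepinephrine sample of m4: without it 13 of the 39 genes passed and 2529 of all, and without the 4 samples of m4 these counts were 11 and 2300.

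The 2 agonist effects were then set against each other in 1 contrast. The effect of UK 14,304 was lower than that of norepinephrine for 34 of the 39 genes and for 7230 of all 15247. The median difference over the 39 genes was -0.12 on the log2 scale, but 0 of the 39 passed by edgeR or by DESeq2 with the block. Across all genes 0% passed and 405 had an unadjusted p under 0.05, or 2.66%, and 13 of the 39 genes were among them. The largest differences among those 13 were -0.36 (SE 0.14, unadjusted p = 0.0182) for Plod2, -0.32 (SE 0.128, unadjusted p = 0.0249) for Stc2, -0.31 (SE 0.11, unadjusted p = 0.0103) for Ankrd37 and -0.30 (SE 0.0861, unadjusted p = 0.00247) for Ak4. For Hif1a the difference was 0.02 (SE 0.0913, unadjusted p = 0.854). A missed threshold does not show that both agonists act alike, and with errors of this size the larger reductions with UK 14,304 are not shown to differ from those with norepinephrine. Both vehicles were also set against each other, in the same samples that are the baselines of the agonist comparisons. Here 0 of the 39 genes passed and none had an unadjusted p under 0.05, against 1.82% of all genes. With HCl vehicle 32 of the 39 genes were higher than with DMSO vehicle, against 7896 of all 15247. The median log2 difference of HCl vehicle from DMSO vehicle was 0.041 over the 39 genes and 0.0024 over all genes.

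The 39 genes were also compared between samples of different numbers. The median over the 39 genes of the log2 level against each gene's own mean was lowest for m3 in each of the 4 groups, at -0.049 with HCl vehicle, -0.18 with norepinephrine, -0.10 with DMSO vehicle and -0.48 with UK 14,304. It was highest for m2 in both vehicle groups, at 0.25 with HCl vehicle and 0.24 with DMSO vehicle, and also with UK 14,304. In the UK 14,304 sample of m3, 37 of the 39 genes lay below their own mean. This measure was taken over the 39 genes only, without a value over all genes beside it.

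**Figure D4:**
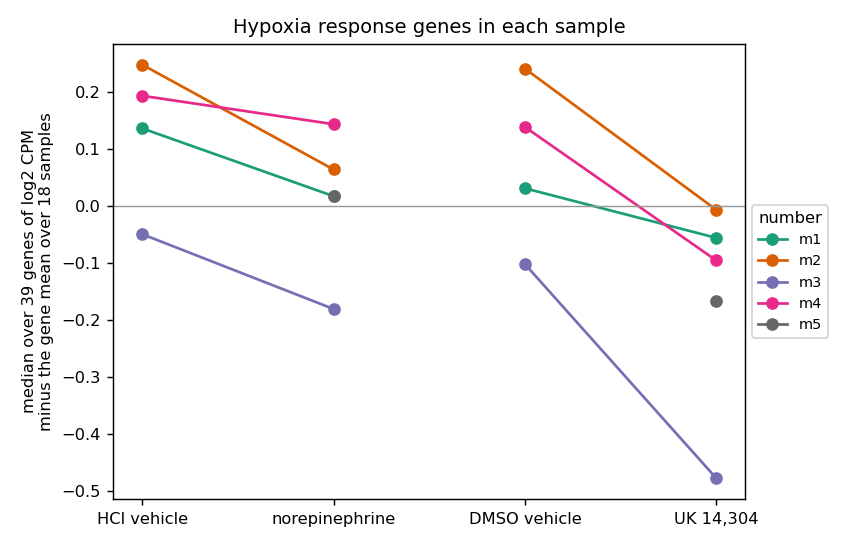
Median over the 39 genes of the log2 CPM minus the mean of each gene over the 18 samples, for each sample by group, with lines joining an agonist sample to the vehicle sample of the same number. Every line goes down, and m3 is the lowest point of each group, at -0.48 with UK 14,304.

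Within numbers, the median over the 39 genes was below 0 in all 8 pairs. With UK 14,304 the median log2 ratio to the vehicle of the same number was -0.11 in m1, -0.25 in m2, -0.32 in m3 and -0.22 in m4, and 34 to 36 of the 39 genes were lower in each. With norepinephrine it was -0.10 in m1, -0.17 in m2, -0.093 in m3 and -0.041 in m4, and 32, 34, 32 and 28 of the 39 genes were lower. Of the 19 genes called with UK 14,304, 14 were lower with norepinephrine in m4. Over all tested genes the median stayed between -0.021 and -0.0016 in these 8 pairs, and 50.5% to 52.8% of genes were lower. All 4 numbers were lower with UK 14,304 for 30 of the 39 genes, and for 15.5% of all genes tested. In the comparison of UK 14,304 with its vehicle, both samples of m1 belonged to those with more ribosomal RNA reads and both of m4 to those with less, and in m2 and m3 the vehicle sample had more and the agonist sample less. With a term for this split in the model, 9 of the 39 genes passed, namely Egln3, Pfkfb3, Ak4, Fam162a, Stc2, P4ha2, Ankrd37, Ndrg1 and Selenbp1, with 78 of all genes.

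Many of the calls changed with single samples. Leaving out the DMSO vehicle sample of m2 left 7 of the 39 genes and 68 of all genes past the threshold with UK 14,304, that of m3 left 10 and 95, and the UK 14,304 sample of m3 left 12 and 91. Leaving out the norepinephrine sample of m4 raised the counts to 27 of the 39, of which 26 were lower and 1 higher, and 1225 of all genes. The 7 genes Egln3, Pfkfb3, Ak4, Fam162a, Stc2, Ankrd37 and Selenbp1 kept their call whichever single sample was left out. The calls of Egln1, Gys1, Car9 and Adm were the least steady, with 2, 2, 3 and 4 of the 18 such fits keeping them. Without all samples of m2 only Ankrd37 of the 39 passed, with 24 of all genes, and without all samples of m3 only Pfkfb3, Fam162a, Stc2 and Ankrd37 did, with 23 of all genes. The fitted direction of the 19 genes stayed below 0 in all of these fits.

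**Figure D5:**
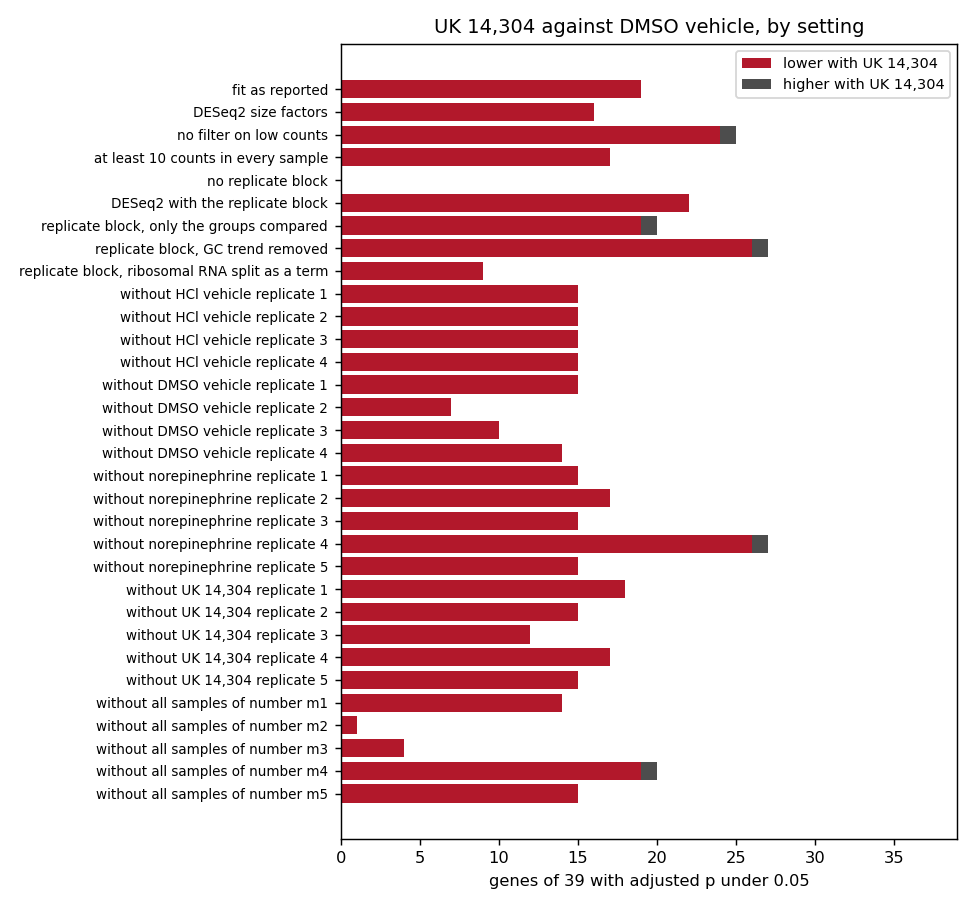
Number of the 39 genes with an adjusted p under 0.05 for UK 14,304 against DMSO vehicle in the reported fit and under each alternative, with reductions in red and increases in grey. The bars run from 0 without the replicate block to 27, against 19 as reported.

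Other genes of the pathway gave a mixed picture. Of 14 further HIF paralogs, cofactors and turnover genes none passed with either agonist, and 5 were lower with UK 14,304. Siah2, a ligase that acts on the Egln proteins, had a log2 fold change of -0.28 (SE 0.0709, adjusted p = 0.0661) and its relative Siah1a had 0.28 (SE 0.0793, adjusted p = 0.0991). Of 22 further HIF targets, 16 were tested and 1 fell with UK 14,304, namely Vldlr, a lipoprotein receptor, at -0.40 (SE 0.0723, adjusted p = 0.00658). Ero1a, a disulfide oxidase of the endoplasmic reticulum, had -0.27 (SE 0.0707, adjusted p = 0.0831) and Hmox1, the heme oxygenase, had -0.32 (SE 0.0853, adjusted p = 0.0863). Tfrc, the transferrin receptor, and Edn1, endothelin, had values above 0, at 0.20 (SE 0.0927, adjusted p = 0.338) and 0.36 (SE 0.133, adjusted p = 0.211). The median over these 16 targets was -0.13, with 12 of them lower. With norepinephrine none of the 30 tested genes of both lists passed.

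Markers of the cell types in the organoids were checked in the same fit. Epithelial markers were high in all samples, at a sum of 5309 to 5807 CPM over 5 genes, while the 4 fibroblast genes and the 3 endothelial genes were under 1 CPM everywhere, and Cd3e of the 3 immune genes was too. All 5 Paneth cell genes were lower with both agonists, 3 fell with UK 14,304 and 2 with norepinephrine, and their summed level ran from 2227 to 3443 CPM with DMSO vehicle and from 1941 to 2890 CPM with UK 14,304. The 4 enterocyte genes were lower with UK 14,304, with none called and a median log2 fold change of -0.14, and their sums ran from 6748 to 10670 CPM against 6005 to 9024 CPM. Of the 4 goblet cell genes 1 fell with UK 14,304. None of the 6 stem cell genes, 5 enteroendocrine genes and 2 tested of 4 tuft cell genes passed with either agonist, and their medians with UK 14,304 were 0.0056, -0.063 and 0.13. The part of these markers in the values of the hypoxia response genes was not tested.

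Some of the rows share sequence with other genes, and their levels are uncertain to that extent. Selenbp1 shares up to 1712 bp at 98.5% identity with Selenbp2, Ak4 shares 672 bp with Ak3l2-ps, Bnip3l shares 1131 bp with Bnip3l-ps, and Ldha and Mif match pseudogenes or other transcripts over 1000 and 508 bp. Exons of Ankrd37, Higd1a, Bnip3 and Fam162a overlap another gene over 22.7%, 22.5%, 22.2% and 19.8% of their length, where reads were not counted for either. Egln3, Pfkfb3, Stc2, P4ha1, Vegfa and Adm had no such match of at least 50 bp at 95% identity.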

How the data were processed

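Whole-organoid mRNA was sequenced as 50 bp single reads after a KAPA mRNA HyperPrep library, from samples with an RNA integrity number over 8. Per the labels the authors used FastQC 0.11.8, MultiQC 1.7, STAR 2.7.3, SAMtools 1.9 and Subread 1.6.4 on GRCm38, and per the file headers they counted with featureCounts 2.0.1 and Ensembl 102, without strand and without reads that fit several genes or places. The deposited values are raw counts of reads per gene, and no library or gene normalization had been applied. Total counts were 21866149 to 27850373 per sample, and the members had from 56 counts (Plod2) upward in their lowest sample.

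Groups came from the labels. The 18 samples were fitted in 1 model of the 4 groups plus the replicate number as a block (edgeR 4.0.16 in R 4.3.3, TMM, filterByExpr with a minimum count of 10, robust quasi-likelihood test, Benjamini-Hochberg adjustment over 15247 genes). The SE of a log2 fold change is its size divided by the root of F. The labels do not spell out m. Deviations of same-numbered samples from their group means correlated at 0.119 to 0.431 for norepinephrine with HCl vehicle and at 0.155 to 0.520 for UK 14,304 with DMSO vehicle, in 4 pairs each, so the numbers were taken to pair the samples of these comparisons. Between norepinephrine and UK 14,304 the 5 correlations ran from -0.212 (m4) to 0.436, with 0.0407 for m5, so the pairing is not borne out in every number for the contrast between the agonists. The samples of m5 have no vehicle of their own, and through the shared block they enter the estimate of spread, the contrast between the agonists and, with less weight, each comparison with a vehicle. Neither the labels nor the study's description say whether the numbers mark separate mice. The p-values of the block fit measure the spread left between these samples after differences between numbers were fitted. Whether that is a spread between mice is not known.

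Members, role groups, pathway and marker lists were chosen with earlier results of these data known. 1 gene of the pathway list is not reported here and was left out of its counts. Genes with values in every sample are those called for either agonist, the HIF subunits, the 3 Egln genes and, for each agonist, the 3 highest and 3 lowest log2 fold changes with 1 sign in all 4 numbers, 26 genes in all. The edgeR fit, with and without the block, was tested before use on simulated counts in which same-numbered samples shared a deviation. That test cannot show whether the numbers pair the real samples, and the other fits were not tested in this way. The alternatives were DESeq2 1.42.0 or its size factors, other filters, no block, only the groups compared, removal of the GC trend, a term for ribosomal RNA reads, an adjusted p under 0.01, and leaving out samples. Shared sequence was searched with blastn 2.17.0 in GENCODE M21 transcripts (at least 50 bp at 95% identity), and exon overlaps in the deposited coordinates. Promoter windows came from RefSeq for GRCm38.p6.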

Additional observations from a re-analysis of the deposited data

Results flagged for a closer look

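Among 104 sets of samples (26 genes in 4 groups), 12 held a sample that lay apart from the rest by Dixon's test at the 95% level, where chance alone gives about 1 in 20, or 5.2. The number m3 supplied 9 of the 12. With HCl vehicle, m3 was the low sample for Ldha at 1718 CPM (others 2013 to 2046), Slc16a3 at 156 CPM (others 195 to 199), Pdk1 at 358 CPM (others 405 to 414), Fam162a at 152 CPM (others 189 to 196) and P4ha2 at 29.8 CPM (others 35.3 to 36.1). With norepinephrine, m3 was low for Pfkfb3 at 78.9 CPM (others 89.4 to 92.9) and Ak4 at 83.2 CPM (others 110 to 118). With UK 14,304, m3 was low for Higd1a at 16.5 CPM (others 20.4 to 21.6) and high for Car12 at 69.4 CPM (others 51.6 to 55.8). These genes share their samples, so the 9 results are not separate events.

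The other 3 were Hif1a with DMSO vehicle, where m2 was low at 106 CPM (others 119 to 121), and Egln2, which was high at 74.6 CPM in m1 with HCl vehicle (others 68.0 to 68.9) and at 79.3 CPM in m4 with norepinephrine (others 58.1 to 61.4). The norepinephrine sample of m4 is the one without which 13 of the 39 genes passed the test for norepinephrine against HCl vehicle by edgeR. It had the highest GC trend of the 18 samples, at 0.19 log2 units per 10 percentage points of GC, and the UK 14,304 sample of m4 had the lowest, at -0.22. The part of the GC trend in these values was not tested beyond the fit with the trend removed, in which 0 of the 39 genes passed with norepinephrine and 27 with UK 14,304.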

How the results depend on the processing

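The calls depend on the replicate block. For UK 14,304 against DMSO vehicle, 19 of the 39 genes and 186 of all genes passed as reported, and without the replicate block 0 and 6 did. For norepinephrine against HCl vehicle 0 and 16 passed with the block, and 0 and 0 without it, when 0 of either contrast between agonist effects or vehicles passed too. With the replicate block, only the groups compared gave 20 and 525 calls with UK 14,304, removing the GC trend gave 27 and 626 with UK 14,304 and 0 and 31 with norepinephrine, the ribosomal RNA term gave 9 and 78 with UK 14,304, and DESeq2 gave 22 and 272 with UK 14,304, 0 and 34 with norepinephrine and 0 and 1 for the difference between the agonist effects. Without a filter on low counts the numbers were 25 and 627 with UK 14,304, 6 and 153 with norepinephrine, 2 and 24 for the difference and 0 and 17 for the vehicles, and at least 10 counts in every sample gave 0 and 1 for the difference. An adjusted p under 0.01 left 11 and 91 with UK 14,304.

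Leaving out 1 sample gave 7 to 27 of the 39 genes and 68 to 1225 of all genes with UK 14,304, 0 to 13 and 10 to 2529 with norepinephrine, and 0 and 0 to 1 for the difference. Leaving out all samples of m1, m2, m3, m4 or m5 gave 14, 1, 4, 20 and 15 of the 39 genes and 98, 24, 23, 585 and 174 of all genes with UK 14,304. For norepinephrine these were 0, 0, 0, 11 and 0 of the 39, and 4, 7, 5, 2300 and 16 of all, and for the difference leaving out m4 gave 0 and 12. Such fits have fewer samples, and no called gene changed its direction in any of them. The cause of the other changes was not tested. Counts under the fits not named here stayed within 1.5 times those reported. Genes of few reads, Adm, Plod1, Plod2 and Bnip3, have the least depth behind them.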
